A study of Mus musculus with 3 samples.

Results

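The 10 genes described here are classical targets of the hypoxia-inducible factors (HIFs): Car9, Vegfa, Ndrg1, Slc2a1, Ankrd37, Egln3, Bnip3, Pdk1, Ldha and Pgk1. They were taken by symbol from the gene annotation of each count matrix, and 10 of 10 were found in all 3 matrices, among 32288 features. The cells came from the patellar tendon of wild-type mice, the short tendon between kneecap and shin bone, digested with collagenase and sorted to leave out haematopoietic and endothelial cells. RNA of single cells was captured in droplets, and each captured molecule carried a unique molecular identifier (UMI). A single library represents mice at 2 weeks of age, and 2 libraries represent mice at 20 weeks (20-week replicates 1 and 2). Neither the number nor the sex of the animals behind a library is labelled, so the p-values cannot be read as measuring a spread between animals. A spread between libraries could be seen only at 20 weeks, and in some comparisons it was pooled over all genes. No group was treated.

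HIFs are transcription factors made of an oxygen-labile alpha subunit and a stable beta subunit. When oxygen is plentiful, prolyl hydroxylases mark the alpha subunit, the VHL protein binds it and it is degraded. When oxygen is short, the alpha subunit persists, and the pair binds DNA at a short core motif near its target genes. Tendon is a tissue with few vessels, and its cells are known to rely heavily on glycolysis. The 10 members cover different arms of the response: pH control (Car9), vessel growth (Vegfa), feedback on HIF itself (Egln3), glucose uptake and glycolysis (Slc2a1, Pgk1, Ldha), the gate into the citric acid cycle (Pdk1), mitochondrial turnover (Bnip3), and 2 genes widely used as markers of hypoxia (Ndrg1, Ankrd37).

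The HIF core motif was searched near the members' start sites in its form ACGTG, and the stretches below are shown because they carry it. Cores that begin with G were neither searched nor marked. The search used RefSeq windows on GRCm38.p6 that reach 250 bases before and 50 bases after a start, and the motif was ACGTG, or its reverse complement CACGT. Windows were found for 9 of 10 members, 12 windows in all, and a match lay in at least 1 window of 8 of these members. Among all windows of 300 bases in the same table, 19.6% held a match. The searched motif is in capitals, the sequences run 5′ to 3′ on the gene's strand, and each stretch is at most 30 bases long.

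Car9 at chr4:43506996-43507024 (forward strand): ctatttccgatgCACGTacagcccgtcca
Slc2a1 at chr4:119108697-119108725 (forward strand): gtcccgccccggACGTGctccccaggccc
Ankrd37 at chr8:45999840-45999868 (reverse strand): cagtgtttgggtACGTGaggccgcagcgg
Egln3 at chr12:54204087-54204115 (reverse strand): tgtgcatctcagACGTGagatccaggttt
Bnip3 at chr7:138909597-138909626 (reverse strand): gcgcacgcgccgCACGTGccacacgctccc
Ldha at chr7:46845751-46845779 (forward strand): gcctaCACGTGggttcccgCACGTccgct
Pgk1 at chrX:106186938-106186966 (forward strand): gcgtcgtgcaggACGTGacaaatggaagt
Vegfa at chr17:46025358-46025386 (reverse strand): ggagtgcgtgccCACGTcagagagcaaca

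The match of Car9 began 18 bases before the RefSeq start, that of Slc2a1 36 bases before it and that of Ankrd37 6 bases before it. The Bnip3 match is a palindrome that reads on both strands. Ldha held 5 match positions in 1 of its windows, and the stretch printed carries 3 of them. The matches of Vegfa, Ankrd37 and Ldha lay in windows of starts 7206, 5857 and 4329 bases inside the gene models of the GENCODE annotation, and the window at the outer start of Vegfa held none. Pdk1 had no match in either of its windows. A match is a run of letters and was not tested as a binding site. The 3 members whose age differences are described first lie on chromosome 4 (Car9, 43506966 to 43513729, forward strand), chromosome 12 (Egln3, 54178981 to 54203860, reverse strand) and chromosome 15 (Ndrg1, 66929318 to 66969640, reverse strand) of GRCm38. Car9 and Ndrg1 overlap predicted genes on the opposite strand, Egln3 overlaps none.

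Barcodes numbered 5654, 715 and 1169 in the 2-week library and 20-week replicates 1 and 2, and their UMIs 35556626, 1886785 and 5849867. After filters on genes, UMIs and mitochondrial share and the removal of likely doublets, 4739, 606 and 1006 cells were used, with median UMIs per cell of 6491, 2822 and 5118. The 2-week library shared 2 barcodes with 20-week replicate 1 and 3 with replicate 2. Clusters were made without the members or any other gene of the lists used here, and were named from marker genes where these led the cluster. Tenocyte-like cells (627, 243 and 125 in the same library order) expressed Scx, Tnmd or Kera, progenitor-like cells (800, 114 and 210) Pi16 and Cd55, and mural-like cells (668, 43 and 33) genes of smooth muscle or pericytes. Chondrocyte-like (249) and osteogenic-like cells (155) came from the 2-week library. Cluster 25 (44 cells of 20-week replicate 2) met the marker count for osteogenic-like cells with Ibsp and Spp1, but was left unnamed by hand. Clusters 2, 4 and 19 also had 2 markers of their type among the leading genes and kept their names. Other leading genes of cluster 25, Cytl1, Clu, Clec3a, Chad and Slurp1, were not of the osteogenic list. Of these, Clec3a and Chad also led the 2-week osteogenic-like cluster. The class of tenocyte-like cells was made up differently at the 2 ages: clusters 2 and 11 held 392 and 196 of the 627 cells at 2 weeks, while cluster 3 held 232 of 243 and 79 of 125 at 20 weeks. Age and cluster therefore cannot be told apart in this class. Values within cluster 3 are given beside those of the class for the genes called in it and for Vegfa. Muscle fibre-like (84) and B lineage-like cells (68) came from 20-week replicate 2, which held all but 2 cells of these clusters, although the sort should leave B-lineage cells out. Levels are UMIs per 1000000 UMIs of the same cells (counts per 1000000, CPM), with exact 95% Poisson intervals that cover counting error only.

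Car9 encodes a carbonic anhydrase on the cell surface that removes acid from hypoxic cells. It was a gene of young tenocyte-like cells: the 2-week library held 424 Car9 UMIs in all cells, 414 of them in tenocyte-like cells, and both 20-week libraries held 0. In tenocyte-like cells the level was 76.0 CPM at 2 weeks and 0 at 20 weeks, which is lower by at least 31.1-fold with 3 counts set in place of 0 over the 20-week group. Against 20-week replicate 1 or 2 by itself, with 3 counts in that library, the bound was 18.5-fold or 12.6-fold. The adjusted p of edgeR's quasi-likelihood test was 0.000107, and 0.401 with stricter cell filters, with which no gene was called. Car9 passed the filter on low counts through the 2-week library alone. With 0 UMIs in both 20-week libraries it showed no spread of its own. Its p-values, here and in all cells, therefore rest largely on the spread of other genes. At 20 weeks 0 of 243 and 0 of 125 tenocyte-like cells had a UMI, which, with 3 cells set in place of 0, allows shares of cells with a UMI of up to 1.23% and 2.4%. Within the class, Car9 belonged to cluster 2, which Angptl7 and Crabp1 led and which also expressed the cornea and tendon proteoglycan Kera. There it stood at 104 CPM in the 2-week library, and 143 of 392 cells (36.5%, exact Clopper-Pearson interval 31.7% to 41.5%) had a Car9 UMI. In the other 2-week tenocyte-like clusters, cluster 3 held 0 UMIs in 39 cells, and 1 of 196 cells of cluster 11 had a UMI. Of the 668 2-week mural-like cells, which should lack the gene, 1 (0.15%) had a UMI, at a median depth of 7002 UMIs against 9370 in cluster 2. With every cell thinned to 2000 UMIs, the share in cluster 2 was 12.4%, after 12 shallower cells were left out. Cluster 2 supplied 392 cells at 2 weeks but 5 and 1 in the 20-week libraries, so the absence of Car9 at 20 weeks went with the near absence of this cluster.

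Cluster 2 was not high for every member. It was at 29.6 CPM for Vegfa against 62.1 in cluster 0 and 79.8 in cluster 1 of the same library. Its Ndrg1 level was 10.8 CPM, among the lower values of the 2-week clusters. Bnip3 (73.8 CPM), Pdk1 (32.4 CPM) and Ldha (546 CPM) were toward the upper end. These are levels without a test between clusters, which come from the same library.

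**Figure D1:**
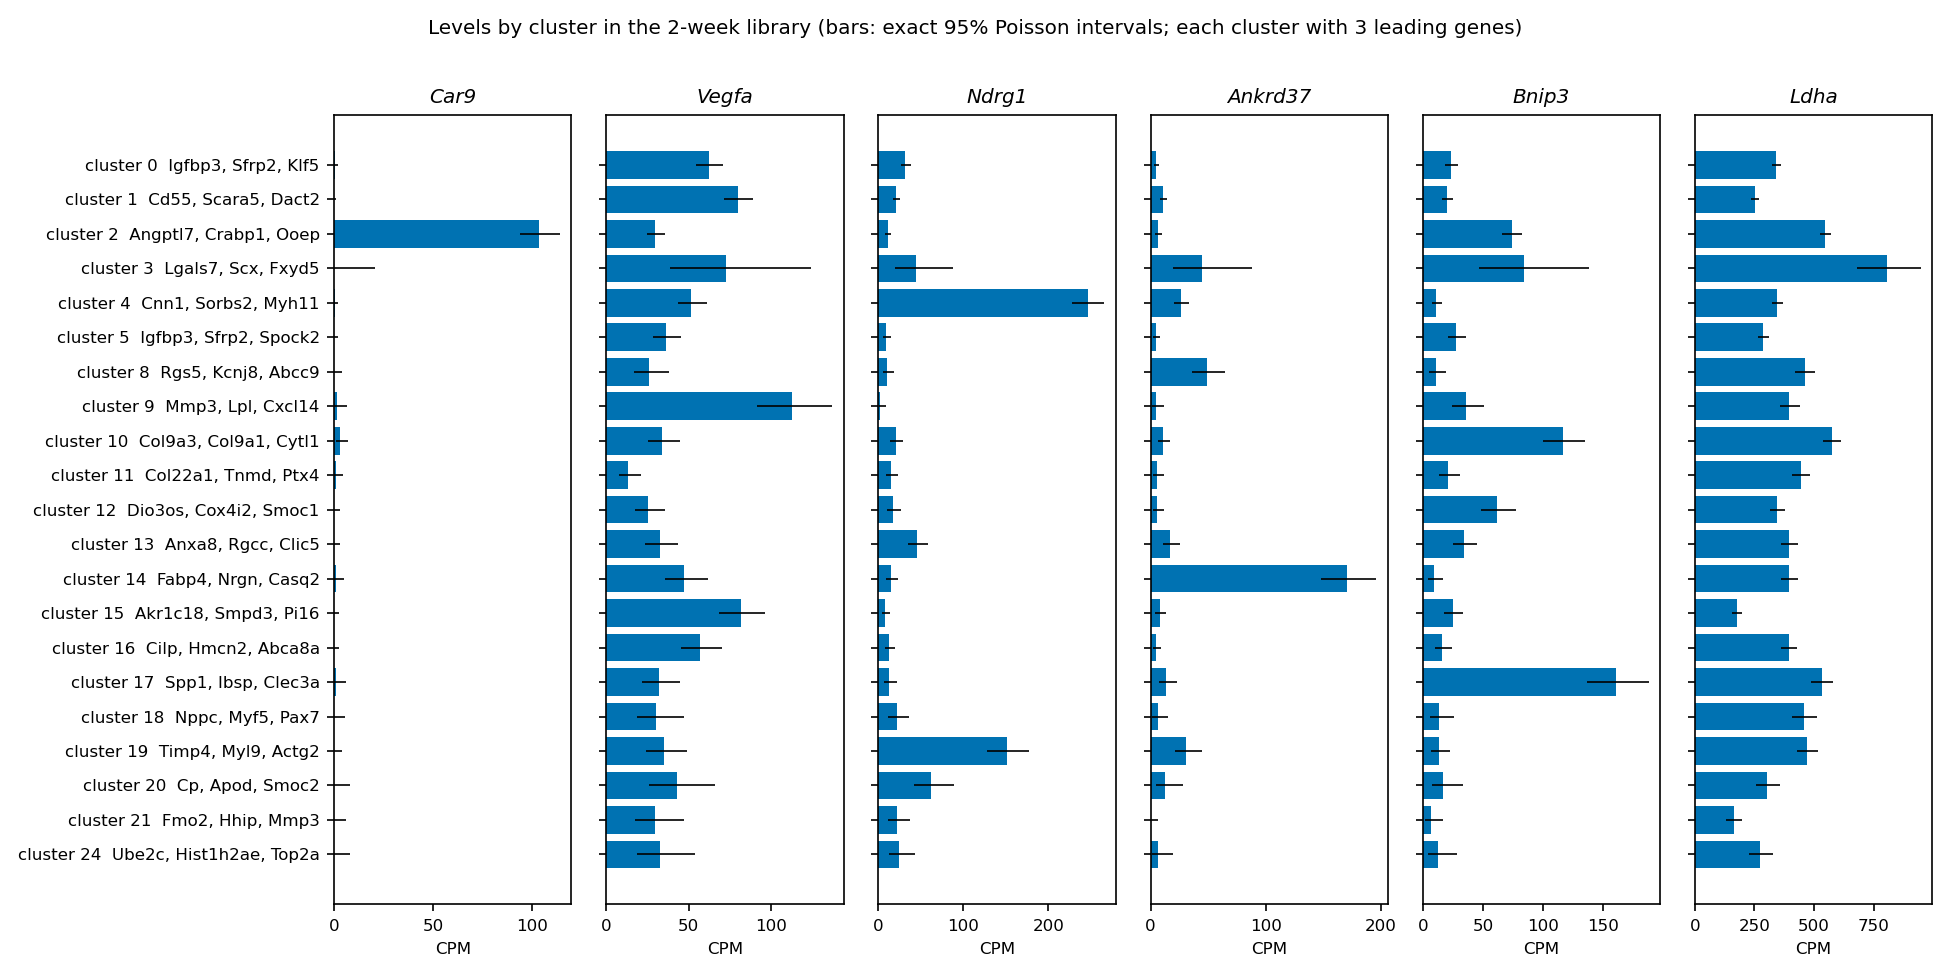
Levels of 6 members in clusters of the 2-week library with at least 20 cells; bars are CPM on linear axes starting at 0, lines are exact 95% Poisson intervals, and each cluster is named by 3 of its leading genes. Car9 is at 104 CPM in cluster 2 and at most 2.66 CPM elsewhere, Ndrg1 peaks in clusters 4 and 19, Ankrd37 in cluster 14 and Bnip3 in clusters 10 and 17.

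Egln3 encodes a prolyl hydroxylase (PHD3) that is itself a HIF target and marks HIF alpha for destruction. In progenitor-like cells it stood at 2.08, 13.6 and 9.07 CPM in the 2-week library and 20-week replicates 1 and 2, from 12, 5 and 12 UMIs (log2 change 2.30 ± 1.32, adjusted p = 0.663). In tenocyte-like cells it stood at 1.28 CPM (7 UMIs) at 2 weeks, 107 CPM (78 UMIs) in 20-week replicate 1 and 12.1 CPM (6 UMIs) in replicate 2. Both 20-week libraries were above the 2-week library, but they differed from each other by far more than the counting error, and replicate 1 supplied most of the counts. The log2 fold change was 5.43 ± 1.08 (SE, 1 against 2 libraries), with an adjusted p of 0.00534. Without replicate 1 the log2 change was 2.35, with no test. The call was lost with another scaling (RLE size factors, adjusted p = 0.131), with sums thinned to equal depth (0.128) and with stricter cell filters (0.55). It passed with DESeq2 (0.00271) and with no filter on low counts (9.94e-08). With the stricter filters edgeR called no gene in this class, and 614 had an unadjusted p under 0.05.

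Among clusters, Egln3 was highest in cluster 3 in 20-week replicate 1 and in cluster 25 in replicate 2, where muscle fibre-like cluster 22 (67.5 CPM) came next. In cluster 3, led by Lgals7, Scx and Fxyd5, the levels were 0, 110 and 18.4 CPM in the 2-week library and 20-week replicates 1 and 2. A count of 0 in 39 cells at 2 weeks allows up to 3 UMIs, so the rise in cluster 3 was at least 4.83-fold over both 20-week libraries. Replicate 1 carried this bound, which was 6.54-fold for replicate 1 (78 UMIs) and 1.095-fold for replicate 2 (6 UMIs) by itself. Its adjusted p in edgeR was 0.000938, which became 0.362 with sums thinned to equal depth. The value of 0.000938 rests on a spread pooled over all genes, not on that of Egln3 itself. Egln3 was the only 1 of 7 members tested in cluster 3 that was called, where 2.89% of 5263 genes were called. In cluster 25, which only 20-week replicate 2 held (44 cells, led by Cytl1, Clu and Ibsp), Egln3 was at 346 CPM (interval 282 to 420), and 30 of 44 cells (68.2%, exact interval 52.4% to 81.4%) had a UMI. That is the highest Egln3 level of any cluster and library with 20 or more cells. In the same cluster Ndrg1 was at 199 CPM, Bnip3 at 144 CPM and Slc2a1 at 37.7 CPM, while Vegfa had 0 UMIs, with an upper Poisson limit of 12.6 CPM.

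Osteogenic markers, 8 genes of bone-forming cells, were summed beside Egln3. In cluster 3 their summed level was 39.1, 8671 and 1511 CPM in the same order, and in cluster 25 it was 9508 CPM. In tenocyte-like cells it was 31.0, 8443 and 1012 CPM. Spp1 and Ibsp carried these sums, at 7773 and 879 CPM in cluster 3 of 20-week replicate 1 and at 7029 and 2463 CPM in cluster 25. The osteoblast markers Bglap, Sp7 and Dmp1 were at 0 in both clusters in all libraries, while in the 2-week osteogenic-like cells Bglap was at 328 CPM, Sp7 at 6.13 CPM (6 UMIs) and Dmp1 at 0, so that of these 3 zeros only that of Bglap contrasts with a level well above 0. In those osteogenic-like cells Egln3 was at 2.04 CPM, close to the 2.34 CPM of all 2-week cells. The part of these markers' cells in the tenocyte-like result was not tested. Cluster 25 was also added to the tenocyte-like cells, after its Egln3 level had been seen. The log2 change of Egln3 was then 6.30 (adjusted p = 1.42e-10), a value that this choice fixed and that supports nothing.

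In all cells together, Egln3 stood at 2.34, 48.2 and 29.1 CPM, a log2 change of 4.10 ± 0.66 with an adjusted p of 0.145 that missed the threshold. No member was called there, where 0.121% of 13230 genes were called and 1150 had an unadjusted p under 0.05. DESeq2 called 201 genes in the same sums, Egln3 (adjusted p = 4.09e-05) and Car9 (0.0157) among them. With the muscle fibre-like and B lineage-like clusters left out, edgeR called both as well (0.0137 and 0.0151). Of the other members in all cells, Ndrg1 stood at 41.9, 165 and 114 CPM (log2 change 1.80 ± 0.61, adjusted p = 0.452) and Slc2a1 at 5.88, 20.2 and 9.04 CPM. Vegfa stood at 48.9, 36.4 and 72.5 CPM and Ankrd37 at 17.2, 3.36 and 9.60 CPM. Pdk1 stood at 16.3, 5.603 and 12.0 CPM, Ldha at 380.2, 328 and 248 CPM and Pgk1 at 119, 75.6 and 65.1 CPM. For Vegfa the 20-week libraries lay on both sides of the 2-week library.

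**Figure D2:**
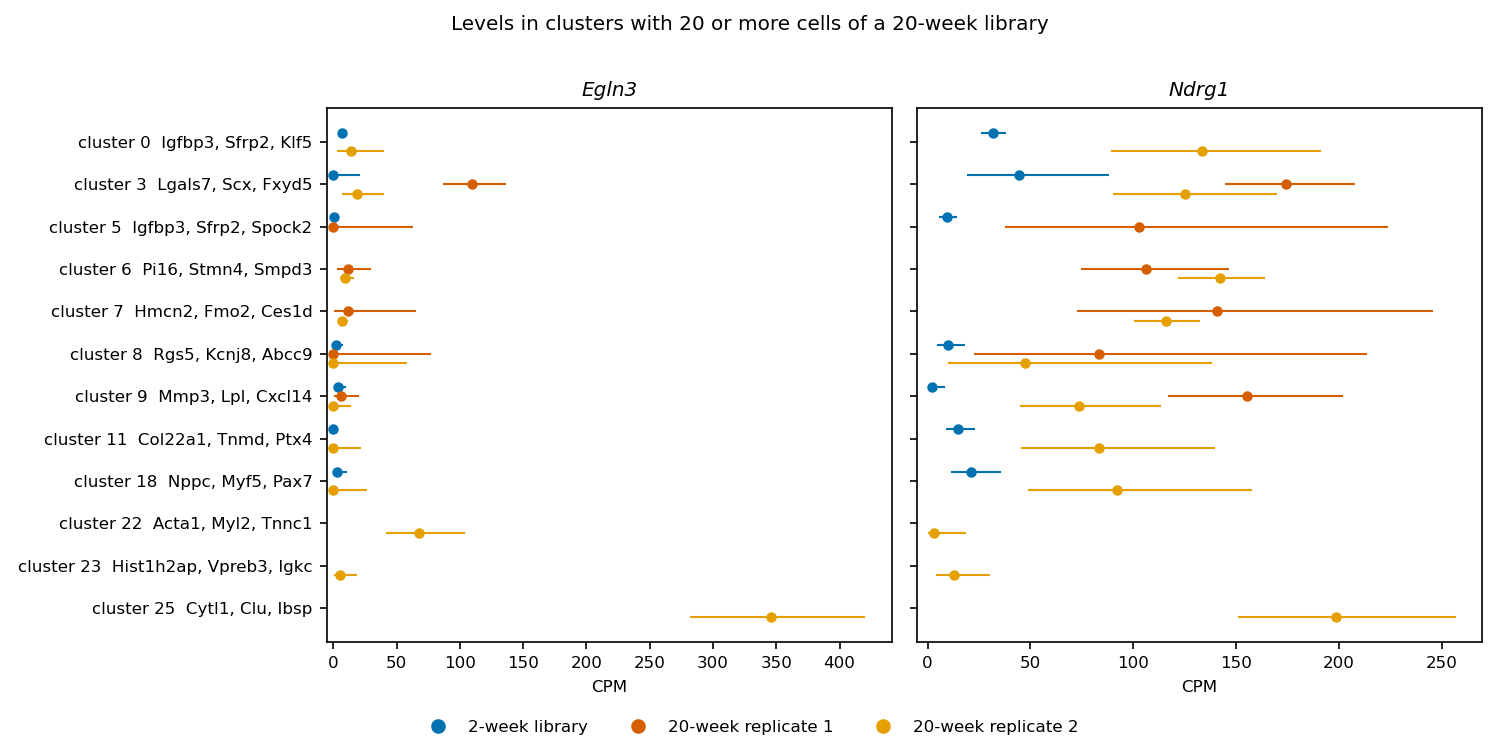
Egln3 and Ndrg1 in clusters with at least 20 cells of a 20-week library; points are CPM on linear axes, lines are exact 95% Poisson intervals and colours mark the library. Egln3 is high in cluster 25, in cluster 3 of 20-week replicate 1 and in muscle fibre-like cluster 22, and Ndrg1 is higher at 20 weeks in each cluster that both ages hold.

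Ndrg1, a stress-responsive gene induced by low oxygen and by differentiation, was the only member called in both tenocyte-like and progenitor-like cells. In progenitor-like cells it stood at 17.1 CPM at 2 weeks and at 112 and 144 CPM in 20-week replicates 1 and 2. Both 20-week libraries were above the 2-week library by several times the gap between them. The log2 change was 2.87 ± 0.59 (SE), with an adjusted p of 0.000101. That p rests on a spread pooled over all genes, not on the spread of Ndrg1 itself. The 2 ages of this class came from different clusters, so age and cluster cannot be told apart in it. Ndrg1 was the only 1 of 9 tested members called in this class, where 3.11% of 9692 genes were called. In tenocyte-like cells Ndrg1 stood at 12.85 CPM at 2 weeks and at 175 and 113 CPM at 20 weeks, a log2 change of 3.33 ± 0.77 with an adjusted p of 0.0155. The ratio of summed counts was 11.7 (counting interval 8.80 to 15.6) in the class, and 3.55 (1.76 to 8.37) within cluster 3, where the levels were 44.7, 174 and 125 CPM and the adjusted p was 0.225. In cluster 11 it stood at 14.8 CPM at 2 weeks and at 83.2 CPM in 20-week replicate 2, from 19 and 14 UMIs. The tenocyte-like call was lost with RLE size factors (0.106), sums thinned to equal depth (0.052) and stricter cell filters (0.461), while the progenitor-like call passed under each of these. The difference of the age effect between progenitor-like and tenocyte-like cells was -0.35 on the log2 scale, with an adjusted p of 1. No member was called for such a difference, which was called for 0.738% of 10022 genes, and 675 genes had an unadjusted p under 0.05.

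The same direction was seen within clusters that had enough cells at both ages. No progenitor-like cluster was among them, so the progenitor-like call has no value within a cluster beside it. There were 7 clusters with at least 20 cells at 2 weeks and in at least 1 20-week library, which gives 10 pairs of a 20-week and a 2-week value. Ndrg1 was higher at 20 weeks in 10 of 10 pairs, a pattern shared by 0.952% of 13230 genes, and in 9 of them the Poisson intervals were separate, shared by 0.136%. The pairs share 3 libraries and are not independent. In cluster 9, led by Mmp3, Lpl and Cxcl14, Ndrg1 had 2 UMIs at 2 weeks (2.32 CPM) and 55 and 20 UMIs at 20 weeks (155 and 73.6 CPM). The ratio of summed counts was 51.7 with a counting interval of 13.8 to 434, and the adjusted p of edgeR was 0.0501, just over the threshold. In this cluster 0 of 6 tested members were called, where 0.445% of 5621 genes were called and 463 had an unadjusted p under 0.05. With RLE size factors, DESeq2, no filter on low counts or thinned sums the Ndrg1 value passed, at 5.41e-07, 0.0342, 1.03e-05 and 0.00224, and with stricter cell filters it did not (0.241). The share of cells with an Ndrg1 UMI, thinned to 2000 UMIs a cell, was 3.03% at 2 weeks and 21.5% and 21.2% at 20 weeks in progenitor-like cells. Unthinned, the shares were 10.2%, 25.4% and 51.4%, and 40, 21 and 17 cells were too shallow to be thinned.

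At 2 weeks Ndrg1 was highest in the contractile mural clusters 4 and 19. It stood at 246 CPM in cluster 4 (Cnn1, Sorbs2, Myh11) and at 151 CPM in cluster 19 (Timp4, Myl9, Actg2), against 9.95 CPM in the pericyte-type cluster 8 (Rgs5, Kcnj8, Abcc9). In the unnamed cluster 14, with Casq2, Pln and Des among its leading genes, it was also low, at 14.6 CPM. Over the whole mural-like class the levels were 176, 312 and 45.4 CPM, so the 20-week libraries lay on both sides of the 2-week library. Clusters 4 and 19 held 323 and 133 of the 668 mural-like cells at 2 weeks, and cluster 8 held 27 of 43 and 32 of 33 at 20 weeks. Within cluster 8 the levels were 9.95, 83.4 and 47.4 CPM, from 10, 4 and 3 UMIs, too few to pass the filter for the test. Of the 3 members tested in mural-like cells (Ndrg1, Ldha and Pgk1), 0 were called, where 0.133% of 2250 genes were called and 71 genes had an unadjusted p under 0.05. At 20 weeks Ndrg1 was lowest in B lineage-like (12.9 CPM) and muscle fibre-like cells (3.38 CPM), and ranged from 47.4 to 199 CPM in the other clusters.

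**Figure D3:**
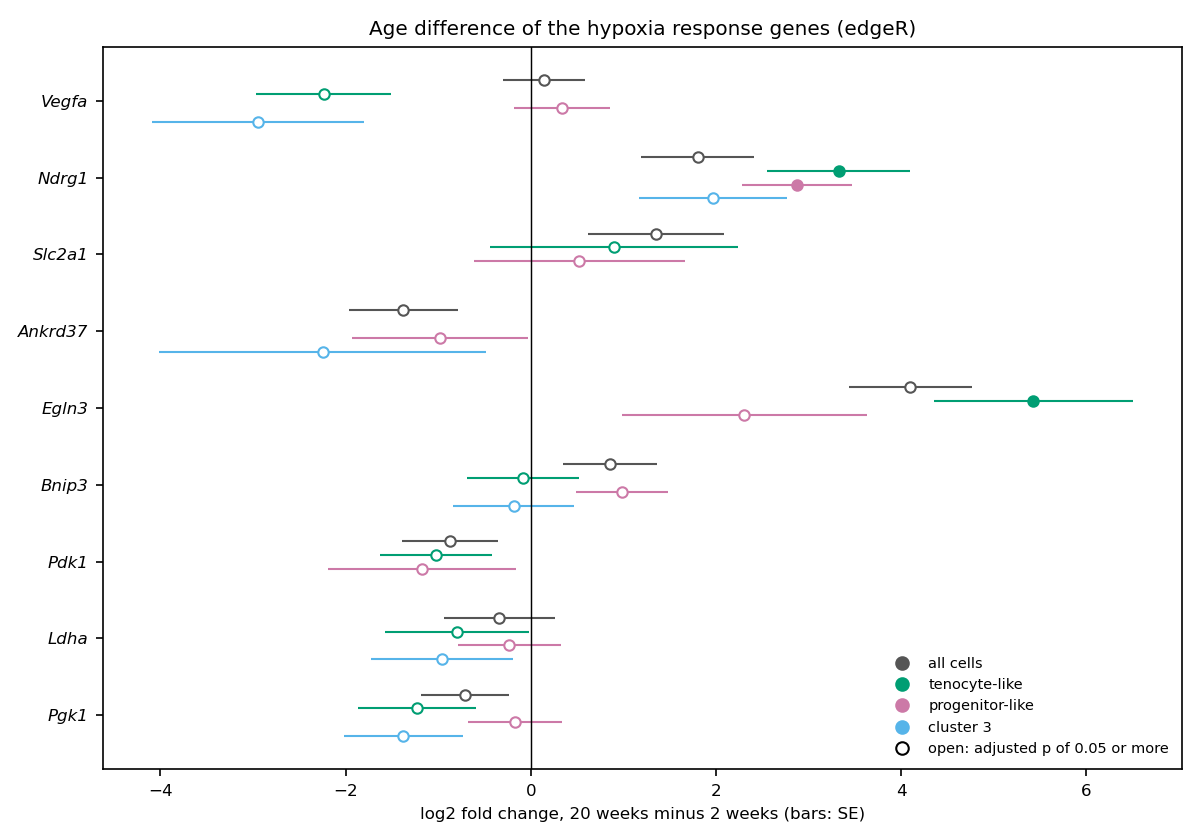
Age difference of 9 members as log2 fold change, 20 weeks minus 2 weeks, with SE, in all cells, tenocyte-like cells, progenitor-like cells and cluster 3; filled points have an edgeR adjusted p under 0.05. Car9 and Egln3 in cluster 3 are left out because a group is at 0, and the filled points are Ndrg1 in 2 classes and Egln3 in tenocyte-like cells.

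Vegfa encodes the main growth factor for blood vessels. No age difference of it passed the threshold in the classes as defined here. At 2 weeks it was highest in cluster 9 (112 CPM) and in progenitor-like cells (80.7 CPM), and the tenocyte-like cells were at 27.2 CPM. At 20 weeks the tenocyte-like cells were at 6.83 and 6.04 CPM, from 5 and 3 UMIs, and the progenitor-like cells at 60.0 and 144 CPM. In each library the progenitor-like interval lay above the tenocyte-like interval. Both 20-week tenocyte-like values were below the 2-week value, with a log2 change of -2.24 ± 0.73 and an adjusted p of 0.115 that missed the threshold. Within cluster 3 Vegfa stood at 72.6, 7.02 and 9.18 CPM (adjusted p = 0.185), and in cluster 11 at 13.2 CPM at 2 weeks and 0 UMIs in 45 cells of 20-week replicate 2. In progenitor-like cells the 20-week libraries lay on both sides of the 2-week library (log2 change 0.34 ± 0.52, adjusted p = 0.993). The difference of the age effect, progenitor-like minus tenocyte-like, was 2.48 ± 0.65 on the log2 scale, with an adjusted p of 0.111. That difference passed the threshold with no filter on low counts (0.0196) and with stricter cell filters (0.0298), and not with RLE size factors (0.0579).

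Of the 9 tenocyte-like members tested, 3 were called (Car9, Ndrg1 and Egln3), where 3.22% of 8072 genes were called. Ankrd37 did not pass the filter on low counts there. In bulk-like sums over a class, fewer cells that express a gene and less RNA in each cell cannot be told apart.

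**Figure D4:**
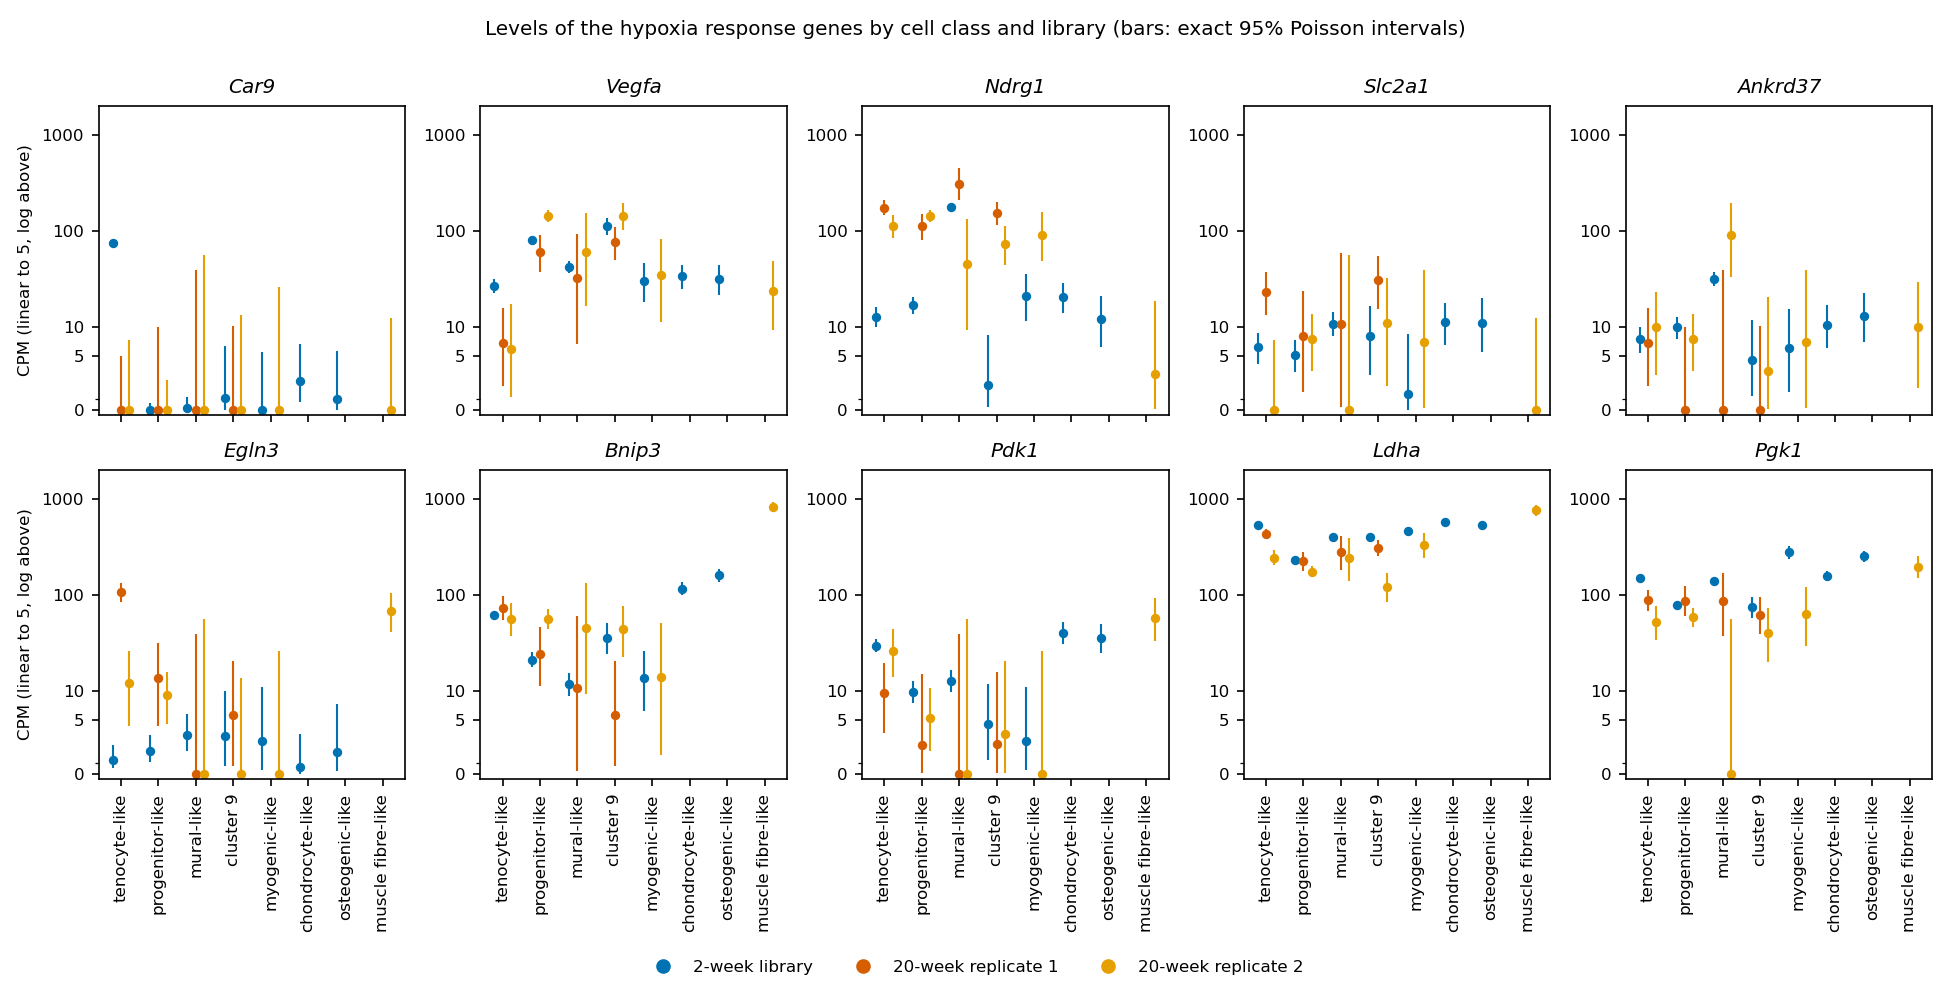
Levels of the 10 members in 8 cell classes or clusters with at least 20 cells in a library; points are CPM on an axis that is linear up to 5 and logarithmic above, lines are exact 95% Poisson intervals and colours mark the library. Ndrg1 is higher in both 20-week libraries in tenocyte-like cells, progenitor-like cells and cluster 9, Vegfa is lower in tenocyte-like than in progenitor-like cells in each library, and Bnip3 is highest in muscle fibre-like cells.

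The glycolytic members Ldha and Pgk1, which make lactate from pyruvate and ATP from a sugar phosphate, did not pass the test in either class. Ldha stood at 531, 432 and 243 CPM in tenocyte-like cells and at 230, 224 and 175 CPM in progenitor-like cells. Pgk1 stood at 150, 88.8 and 52.3 CPM in tenocyte-like cells, with a log2 change of -1.23 ± 0.64 and an adjusted p of 0.473, and at 79.1, 87.3 and 59.0 CPM in progenitor-like cells. Cluster by cluster, Ldha was lower at 20 weeks in 10 of 10 pairs, a pattern shared by 4.07% of genes, and the intervals were separate in 6, as in at least that many pairs for 2.03% of genes. Pgk1 was lower in 9 of 10 pairs, and 9.71% of genes were lower in at least that many. Its intervals were separate in 5, where 2.88% of genes had at least as many. The highest 2-week level of Ldha was 804 CPM in cluster 3, and that of Pgk1 was 276 CPM in myogenic-like cells. Ldha and Pgk1 have processed copies elsewhere in the genome, and how the counting treated reads that match more than 1 place is not given in the sources used here.

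Slc2a1 encodes GLUT1, the basal glucose transporter. It was low throughout, with a highest value of 37.7 CPM in cluster 25. In tenocyte-like cells it stood at 6.24, 23.2 and 0 CPM, so the 20-week libraries lay on both sides of the 2-week library (adjusted p = 0.934). In progenitor-like cells the values were 5.19, 8.18 and 7.56 CPM, from 30, 3 and 10 UMIs (adjusted p = 0.997).

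Pdk1 encodes a kinase that closes the pyruvate dehydrogenase gate to mitochondria, and Bnip3 a mitochondrial protein that promotes mitophagy. Pdk1 was highest in muscle fibre-like (57.4 CPM), chondrocyte-like (40.6 CPM) and osteogenic-like cells (35.8 CPM). In tenocyte-like cells Pdk1 stood at 29.7, 9.56 and 26.2 CPM (log2 change -1.03 ± 0.60, adjusted p = 0.585), and in progenitor-like cells at 9.87, 2.73 and 5.29 CPM (adjusted p = 0.924). Bnip3 was high in the same classes, at 820 CPM in muscle fibre-like, 160 CPM in osteogenic-like and 116 CPM in chondrocyte-like cells. In tenocyte-like cells Bnip3 stood at 61.7, 73.8 and 56.3 CPM, with the 20-week libraries on both sides of the 2-week library. In progenitor-like cells it stood at 21.3, 24.5 and 56.7 CPM (log2 change 0.98 ± 0.50, adjusted p = 0.511). In all cells Bnip3 stood at 37.2, 40.9 and 96.3 CPM. The value of 20-week replicate 2 included the muscle fibre-like cells, and with these and the B lineage-like cells left out the log2 change was 0.44 in place of 0.86. Across 15 sums of a class in a library, centred within library, Bnip3 correlated with Pdk1 (Pearson r = 0.823) and with Ldha (0.734), and not in the same direction with Ndrg1 (-0.536). These points share libraries and differ in depth, and the values are descriptions.

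Ankrd37, a small ankyrin-repeat protein induced by HIF, was highest in cluster 14 and in mural-like clusters. At 2 weeks it stood at 171 CPM (interval 148 to 196) in cluster 14, led by Fabp4, Nrgn and Casq2, where 98 of 183 cells (53.6%) had a UMI. The next values were 48.8 CPM in pericyte-type cluster 8, 44.7 CPM in cluster 3 from 8 UMIs and 31.0 CPM in cluster 19. At 20 weeks cluster 8 held 0 and 6 UMIs (0 and 94.8 CPM). In tenocyte-like cells Ankrd37 stood at 7.53, 6.83 and 10.1 CPM, and in progenitor-like cells at 10.04, 0 and 7.56 CPM (adjusted p = 0.956). Ankrd37 lies on the reverse strand of chromosome 8 (45996902 to 46005707, GRCm38) and overlaps Ufsp2 and Lrp2bp on the opposite strand. The kit keeps strand, but the strand setting of the counting is not given in the sources used here.

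By the pattern over the same 15 sums, the non-member genes most like the members' mean log2(CPM + 10) were S100a1 (r = 0.876), Mb21d2 (0.864), Cmya5 (0.849), Akt1s1 (0.848) and Ddo (0.842). S100a1 and Cmya5 are abundant in striated muscle, and the muscle fibre-like sum is 1 of the 15 points.

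Apart from Egln3, which is counted among the members, the listed genes of oxygen sensing showed no call in any class. Of the 11 genes listed, 9 were tested in tenocyte-like cells and 10 in progenitor-like cells. Hif1a, the oxygen-labile subunit, stood at 108, 86.1 and 70.4 CPM in tenocyte-like cells and at 132, 87.3 and 86.9 CPM in progenitor-like cells. Egln1, the main prolyl hydroxylase in most cells, stood at 88.5, 82.0 and 119 CPM in tenocyte-like cells and at 62.0, 70.9 and 74.9 CPM in progenitor-like cells. Cited2, a brake on HIF transcription, stood at 53.8, 77.9 and 70.4 CPM and at 80.2, 60.0 and 82.4 CPM. The median log2 change of the list was 0.23 in tenocyte-like cells, against 0.06 over all genes, and -0.14 in progenitor-like cells, against 0.02.

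Of 20 further genes of glycolysis and lactate transport, 15 were tested in tenocyte-like cells and 1 rose, where 3.22% of all genes were called. This was Pfkp, a phosphofructokinase, at 9.18, 83.3 and 46.3 CPM (log2 change 2.68 ± 0.68, adjusted p = 0.0284). Within cluster 3 Pfkp stood at 55.9, 85.7 and 58.1 CPM, a log2 change of 0.61 ± 0.70, and was not called. In progenitor-like cells 17 were tested and 1 fell, where 3.11% of all genes were called. For both lists 1 call is about what that share gives. This was Slc16a1, a lactate transporter, at 59.2, 24.5 and 15.9 CPM (log2 change -1.70 ± 0.50, adjusted p = 0.0281). In cluster 3 Hk2, a hexokinase, stood at 27.9, 284 and 30.6 CPM (5, 202 and 10 UMIs). It was called higher (log2 change 2.81 ± 0.88, adjusted p = 0.0488), but 20-week replicate 2 was close to the 2-week library and replicate 1 alone carried the difference. The list's median log2 change was -0.25 among tenocyte-like cells, and 0.06 among progenitor-like cells.

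Of 28 further HIF target genes, 22 were tested in tenocyte-like cells and 1 rose: Ppp1r3c, a scaffold for glycogen synthesis, at 2.39, 45.1 and 16.1 CPM (log2 change 3.56 ± 0.81, adjusted p = 0.0141). Within cluster 3 Ppp1r3c stood at 5.59, 46.35 and 24.5 CPM, from 1, 33 and 8 UMIs, and was not called. The list's median log2 change in tenocyte-like cells was 0.12, and 1 of 22 is close to the 3.22% called over all genes. In progenitor-like cells 23 were tested and 0 called, with a median of -0.12, and the highest levels were those of Higd1a, Bnip3l and Wsb1. Of 9 VEGF ligands and receptors, 5 were tested in progenitor-like cells and 1 rose: Vegfd, a ligand of lymphatic vessels, at 13.2, 38.2 and 52.2 CPM (log2 change 1.77 ± 0.52, adjusted p = 0.0274). Over all genes 3.11% were called in progenitor-like cells. In tenocyte-like cells 4 of the VEGF list were tested and 0 called. Of 7 further genes of pyruvate dehydrogenase control none was called, as Pdk1 itself was not, with 3 of 7 tested among tenocyte-like cells and 5 of 7 among progenitor-like cells. Pdha1 stood at 56.17, 56.01 and 56.33 CPM in tenocyte-like cells. In all cells no gene of these lists was called by edgeR.

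Genes that respond to tissue digestion were measured beside the members because the cells were enzymatically released. In progenitor-like cells the summed level of 18 such genes, Fos, Jun and heat shock genes among them, was 8394, 12580 and 15990 CPM. There 17 of 18 had a log2 change above 0 and 0 were called. In tenocyte-like cells the sum was 10930, 15390 and 9953 CPM. The 7 erythroid markers in progenitor-like cells summed to 720 CPM, from 4 of them, at 2 weeks and to 0 and 8.32 CPM at 20 weeks. Of 25 cell cycle genes 10 were tested in progenitor-like cells and 1 fell: Stmn1, at 54.0, 8.18 and 7.56 CPM (log2 change -2.86 ± 0.57, adjusted p = 5.62e-05). Over all genes 3.11% were called in this class. The part of these 3 lists in the differences of Ndrg1 was not tested. Progenitor-like cells of the 2 ages came from different clusters (clusters 1 and 15 held 600 and 196 of 800 cells at 2 weeks, and cluster 6 held 109 of 114 and 203 of 210 at 20 weeks), so age and cluster cannot be told apart in that class.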

How the data were processed

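Droplet single-cell RNA-seq of sorted patellar tendon cells gave 3 libraries, 1 at an age of 2 weeks and 2 at 20 weeks. The deposited values are UMI counts per gene and barcode, made by the authors with Cell Ranger 6.1.2 on mm10, per the submitters' processing notes and the file headers, and not normalized. The annotation release, the strand setting and the treatment of reads that match several places are not given in the sources used here. Per-sample columns of no known sample were 0.

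Barcodes with at least 500 genes, 1000 UMIs and at most 10% mitochondrial UMIs were kept. In each library the barcodes with the highest doublet scores were left out, up to the share expected at 0.8% per 1000 barcodes (225, 3 and 9 barcodes). Clustering used 2000 variable genes without members and list genes, 30 principal components, 15 neighbours and the Leiden method (python-igraph 0.11.9). Resolution 0.5 was planned and 1.0 was its alternative. At 0.5 the tenocyte-like and progenitor-like classes had under 20 cells in a 20-week library, so 1.0 was used. This was decided on cell counts and markers, after the clusters had been seen. At 0.5 a cluster of 49, 233 and 127 cells was named osteogenic-like. It shared the leading genes Lgals7, Fxyd5 and Comp with cluster 3 of resolution 1.0, and Ibsp, Spp1 and Clu with cluster 25. The name given to such 20-week cells therefore depended on the resolution. A cluster was named when at least 2 of a type's 8 markers were among its 10 leading genes. Cluster 25 met this for osteogenic-like cells and was left unnamed by hand. Clusters 2, 4 and 19 also had 2 markers of their type among the leading genes and kept their names. The other leading genes of cluster 25 were not among the 8 osteogenic markers. Of these, Clec3a and Chad also led the 2-week osteogenic-like cluster. Classes rebuilt in this way may differ from those of the study.

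UMIs were summed per library and class with at least 20 cells each, and tested with edgeR's quasi-likelihood test (4.0.16, R 4.3.3, TMM, filterByExpr, Benjamini-Hochberg over all genes tested, threshold 0.05). A comparison of 1 library with 2 leaves 1 residual degree of freedom, and rests on the assumption that libraries at 2 weeks would vary as those at 20 weeks do. In progenitor-like cells, mural-like cells and clusters 3 and 8 the fit used a spread pooled over all genes. A gene's own spread between libraries did not enter its p-value there. The class by age difference had the library as a blocking term. DESeq2 1.42.0, RLE factors, no filter, stricter cells and thinned sums were alternatives. On simulated data the test recovered 14 of 100 genes changed 4-fold and 85 of 100 changed 16-fold in the tenocyte-like sums of 8072 genes, and 64 and 100 of 100 in the progenitor-like sums of 9692 genes. The changed genes were drawn only from those above a minimum expected count in the smallest sum, and all genes were given a common spread. The recovered shares therefore do not cover members with lower counts. The members and lists were chosen with earlier results of these data known. Named are all members in all cells, tenocyte-like and progenitor-like cells, each list gene past the threshold and otherwise the most abundant genes of a list. Members described in the other comparisons were chosen after their values were seen. A fold against 0 counts is a bound with 3 counts in its place. Positions are those of GENCODE on GRCm38, and promoter windows those of RefSeq on GRCm38.p6; Ndrg1 was not matched in the latter table.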

Additional observations from a re-analysis of the deposited data

Results flagged for a closer look

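The age effect differed between progenitor-like and tenocyte-like cells for 2 genes of the lists measured beside the members, by the class and age term of edgeR with the library as a block. This term was called for 0.738% of 10022 genes. P4ha2, a collagen prolyl hydroxylase induced by HIF, differed by -3.465 on the log2 scale (SE 0.71, adjusted p = 0.0321). It stood at 88.7, 35.5 and 40.1 CPM in progenitor-like cells and at 6.97, 75.1 and 16.1 CPM in tenocyte-like cells, in the order 2-week library and 20-week replicates 1 and 2. Within tenocyte-like cluster 3 P4ha2 stood at 33.5, 77.25 and 15.3 CPM, with the 20-week libraries on both sides of the 2-week library. Stmn1, a microtubule regulator of dividing cells, differed by -3.972 (SE 0.80, adjusted p = 0.0292). It stood at 54.0, 8.18 and 7.56 CPM in progenitor-like cells and at 13.2, 5.46 and 54.3 CPM in tenocyte-like cells, where the 20-week libraries lay on both sides of the 2-week library. Within cluster 3 Stmn1 stood at 67.0, 5.62 and 76.5 CPM. Both classes were made up of different clusters at the 2 ages, so age and cluster cannot be told apart in these differences. No member was called for this difference, and 675 of all genes tested had an unadjusted p under 0.05.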

How the results depend on the processing

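The number of genes called moved with the settings, and so did the calls of Car9, Egln3 and Ndrg1 in tenocyte-like cells. In all cells edgeR called 16 genes, DESeq2 called 201, no filter on low counts gave 695, stricter cell filters 29, thinned sums 43 and leaving out the muscle fibre-like and B lineage-like clusters 169. In tenocyte-like cells the 260 genes called became 46 with RLE size factors, 170 with DESeq2, 468 with no filter, 0 with stricter cells (614 with an unadjusted p under 0.05), 113 with thinned sums and 737 with cluster 25 added. In progenitor-like cells the 301 genes became 86 with DESeq2, 94 with stricter cells and 129 with thinned sums. In mural-like cells the 3 genes became 5 with no filter and 0 with thinned sums (60 with an unadjusted p under 0.05). In cluster 3 the 152 genes became 53 with DESeq2. In cluster 8 the 6 genes became 2 with DESeq2, 1 with no filter and 0 with thinned sums (9 with an unadjusted p under 0.05). In cluster 9 the 25 genes (5 higher, 20 lower) became 127 with RLE size factors (69 higher, 58 lower), 103 with no filter, 0 with stricter cells (356 with an unadjusted p under 0.05) and 74 with thinned sums. The difference of the age effect between classes was called for 74 genes, and for 123 with RLE size factors, 188 with no filter and 195 with stricter cells. The cause of these moves was not tested. Members whose direction turned were not called in any setting where it turned: Vegfa in all cells (-0.13 with thinned sums), Bnip3 in tenocyte-like cells (0.28 with thinned sums, 0.20 with cluster 25 added) and Ndrg1 in mural-like cells (-0.28 with no filter). Leaving out a 20-week library gave values with no test, which for Ndrg1 in progenitor-like cells were 2.74 to 2.91. The cluster comparisons, resolution 0.5 for mural-like cells and the addition of cluster 25 were chosen after seeing the data. At resolution 0.5 the tenocyte-like and progenitor-like classes, and with stricter cells the mural-like class and cluster 8, had too few cells and were not run. No paired analysis was possible because the labels give no pairing between libraries of the 2 ages. Depth limits the low members most in 20-week replicate 1, whose cells held 1784845 UMIs, 36 of Slc2a1 and 6 of Ankrd37 among them.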
